A study of Mus musculus with 6 samples.

Results

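Clearing dying cells, or efferocytosis, was followed through 10 genes of its receptors, bridging molecules and first signalling steps: Mertk, Axl, Tyro3, Gas6, Pros1, Mfge8, Timd4, Itgav, Itgb3 and Elmo1. They were taken by name from the 22180 named genes of the array, each on its brightest probe set among those annotated with 1 gene symbol, and all 10 were measured. Expression had been profiled in macrophages sorted by flow cytometry from BALB/c hearts on day 6 after transplantation into fully allogeneic C57BL/6 mice. Treatment of 3 samples was mTORi-HDL, high-density lipoprotein particles that carry an mTOR inhibitor, dosed at 5 mg/kg on days 0, 2 and 5. The other 3 samples came from untreated mice, which rejected their grafts. No group received the lipoprotein without inhibitor, so carrier and drug cannot be told apart. The sources used here do not give the sort markers, the age of the mice or whether a sample came from 1 recipient or several. The p-values therefore set a difference against the spread between samples, which may not be that between animals. The RNA can come from donor or recipient cells.

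A cell that dies by apoptosis exposes phosphatidylserine on its surface. The receptor tyrosine kinases Tyro3, Axl and Mertk (the TAM family) recognise it through bridging ligands. These bind the lipid at one end and the receptor at the other. Gas6 serves each of these receptors, and protein S (the product of Pros1) serves Tyro3 and Mertk rather than Axl. MFG-E8, the product of Mfge8, links the lipid to integrins of the αv chain (Itgav), which pairs with β3 (Itgb3), while Tim-4 (Timd4) binds it directly. Elmo1 acts inside the phagocyte with a Dock protein to activate Rac, which drives the membrane around the target. In macrophages Mertk is known from resting and anti-inflammatory states and Axl from cells exposed to interferon or growth factors.

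Levels are log2 expression values, on which a difference of 1 is a doubling, and differences are treated minus untreated. The precision is set by the 6 arrays. The array mTORi-HDL 1 stood apart: its values had an SD of 1.68 (2.04 to 2.09 on the other 5 arrays) and correlated with those arrays at 0.708 to 0.741 (0.892 to 0.912 among the other 5). On it bright genes read lower and dim genes read higher, with a slope of 0.58 on the mean of the other 5 arrays over the 22180 genes. Each result is therefore given over all 6 arrays and over the 5 without it (2 treated against 3 untreated). The sorted samples carried macrophage transcripts, with Lyz2 at 10.80 or above on every array, and also T cell transcripts, with Cd3d at 11.31 to 11.45 on the untreated arrays and 8.37 to 10.62 on the treated ones. Cd163, a resident macrophage receptor, read 2.85 to 3.85 throughout.

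Higher levels of Axl and Pros1 in the treated samples were the clearest differences among the 10 genes, and neither passed the test over all genes. Pros1 was higher on all 3 treated arrays, and Axl on 2 of 3. Over all 6 arrays 0 of the 10 genes, and 0% of all genes, reached a Benjamini-Hochberg adjusted p of 0.05 with limma. Only Pros1 lay under 0.05 before adjustment, beside 1.57% (higher) and 3.07% (lower) of all genes. In the same arrays 1 of 10 was higher with no overlap between groups and 0 were lower, beside 5.37% and 5.53% of all genes. Over 5 arrays 0 of the 10 genes and 0% of all genes passed after adjustment. Before it 3 lay under 0.05 (Axl, Pros1 and Timd4), each of them higher, beside 3.47% (higher) and 3.51% (lower) of all genes, and 4 of 10 were higher without overlap and 0 lower, beside 9.75% and 12.5%. The median difference of the 10 genes was 0.16 over 6 arrays and 0.26 over 5, where that of all genes was 0.08 and -0.03.

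**Figure D1:**
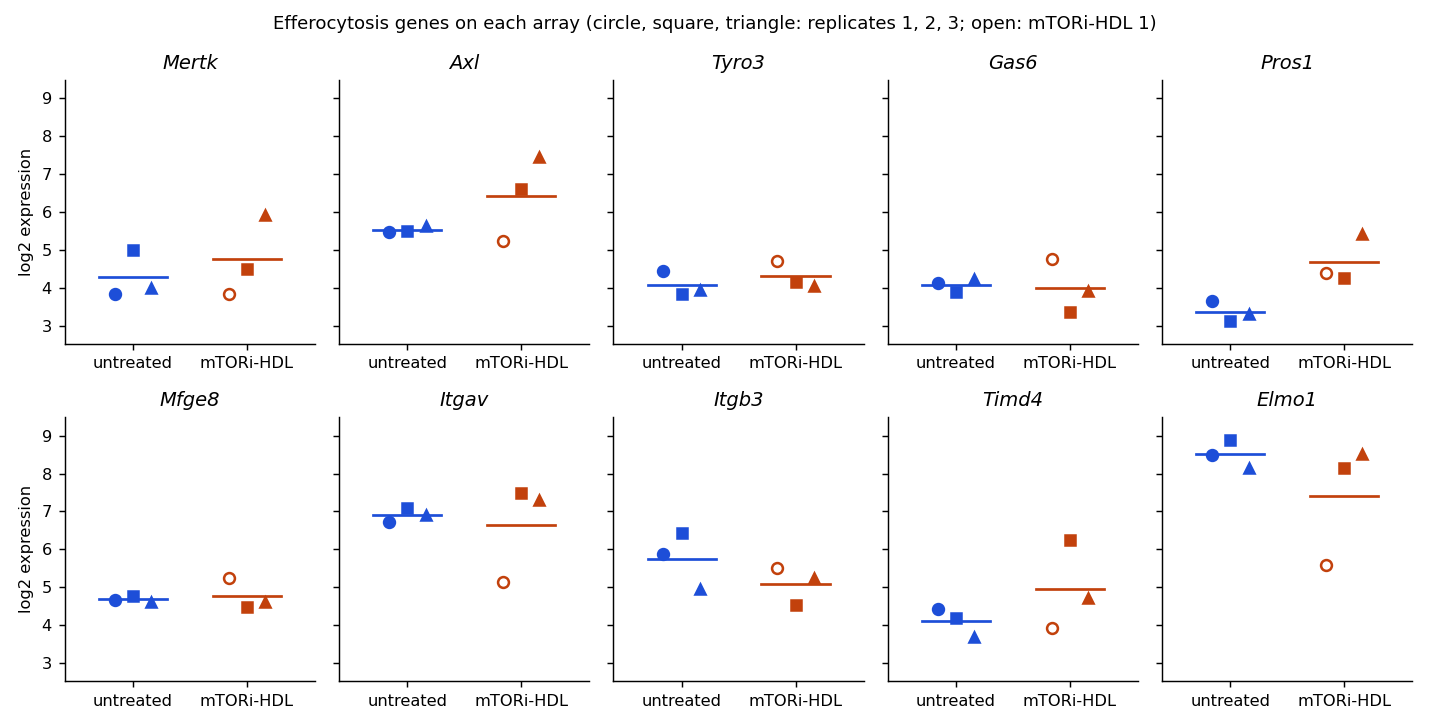
Log2 expression of the 10 genes on each array (y axis), untreated in blue and mTORi-HDL in orange; bars are group means, and the open circle is mTORi-HDL 1. Pros1 separates all treated from all untreated arrays, Axl does so on treated arrays 2 and 3, and Elmo1 and Itgav are low on mTORi-HDL 1 alone.

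The sequences before the start sites of Axl and Pros1 are shown because these are the receptor and the ligand with the largest differences over 5 arrays. Each line gives the 250 bases before the RefSeq start on build GRCm38.p6, read 5′ to 3′ on the gene's strand, at chr7:25788734-25788983 on the minus strand for Axl and chr16:62854057-62854306 on the plus strand for Pros1. Capitals mark matches to the motifs listed after them.
Axl: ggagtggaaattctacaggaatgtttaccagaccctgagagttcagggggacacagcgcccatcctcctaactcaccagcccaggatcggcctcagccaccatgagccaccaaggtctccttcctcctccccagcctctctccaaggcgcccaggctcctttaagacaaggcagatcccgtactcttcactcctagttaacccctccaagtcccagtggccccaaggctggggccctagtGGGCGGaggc
Pros1: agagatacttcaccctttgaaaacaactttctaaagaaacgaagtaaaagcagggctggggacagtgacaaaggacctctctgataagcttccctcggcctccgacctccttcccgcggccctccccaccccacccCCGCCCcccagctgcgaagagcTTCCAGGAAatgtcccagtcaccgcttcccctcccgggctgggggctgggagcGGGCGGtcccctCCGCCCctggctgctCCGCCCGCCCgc

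The motifs searched on both strands were the GC box (GGGCGG), the AP-1 element (TGANTCA), the STAT element (TTCNNNGAA), a nuclear receptor half-site (AGGTCA), the E-box of lysosomal genes (CACGTG) and the TATA box (TATAAA). The Axl window held 1 GC box, 10 to 5 bases before the start, and none of the other motifs. The Pros1 window held 5 GC boxes, 2 of which overlap each other, and 1 STAT match. Among 32851 promoters of the same length 32.7% held a GC box and 7.02% a STAT match. The shares were 6.75% for AP-1, 14% for the half-site, 6.02% for the E-box and 12.4% for the TATA box. These matches describe letters only, and no binding was measured. Promoters of 9 of the 10 genes were found in the RefSeq table. GC boxes lay in 7 of the first-listed promoters, those of Mertk, Axl, Tyro3, Gas6, Pros1, Mfge8 and Elmo1.

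Among the TAM receptors, Axl read 5.22, 6.60 and 7.44 on treated arrays 1, 2 and 3, and 5.48, 5.49 and 5.62 on the untreated arrays. The untreated arrays thus lay close together, treated arrays 2 and 3 were above them, and mTORi-HDL 1 was below them. The difference was 0.89 ± 0.53 (SE) over all 6 arrays (limma, unadjusted p = 0.135, adjusted p = 0.89) and 1.49 ± 0.29 over 5 (unadjusted p = 0.0016, adjusted p = 0.287), a 2.81-fold higher level with a 95% interval of 0.79 to 2.19 on the log2 scale. Without mTORi-HDL 3 the difference was 0.38. Over the alternatives in processing, the adjusted p of Axl ran from 0.22 to 1.

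On mTORi-HDL 1 Axl was the lowest of the 6 arrays, and the part of that array's narrower scale in this reading was not tested. The line of mTORi-HDL 1 on the other 5 arrays put Axl at 5.45, against a measured 5.22, a departure of 0.26 residual SD below the line, whose residual SD was 0.90. By rank within its own array Axl stood above 78.3% of genes on mTORi-HDL 1, and above 86.0% and 91.9% on the other treated arrays. On the untreated arrays it stood above 75.3%, 74.6% and 77.1%, so by rank the groups did not overlap. Quantile normalization keeps the order of genes within each array, so the lack of overlap after it repeats the rank result and adds no support. The difference of Axl after it was 1.0 ± 0.41 (SE; limma, unadjusted p = 0.0468, adjusted p = 0.857). Under that setting 2 of the 10 genes, Axl and Pros1, were higher without overlap, as were 5.73% of all genes.

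Mertk varied more within the groups than between them. It read 3.83, 4.49 and 5.93 on treated arrays 1, 2 and 3 and 3.83, 5.00 and 3.99 on the untreated arrays. Only mTORi-HDL 3 was above every untreated array, and mTORi-HDL 2 lay below untreated 2. The difference was 0.48 ± 0.58 (SE; limma, adjusted p = 0.895) over 6 arrays, 0.94 ± 0.52 over 5, and -0.11 without mTORi-HDL 3. Axl and Mertk were both highest on mTORi-HDL 3.

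Tyro3, the receptor of the family best known from the nervous system, was dim and differed little. It read 4.70, 4.16 and 4.04 in treated and 4.45, 3.84 and 3.93 in untreated samples, with the groups overlapping. Its difference was 0.23 ± 0.31 (SE) over 6 arrays and 0.03 over 5, with a 95% interval over 5 arrays of -0.59 to 0.65. An interval of that width does not show equal levels.

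Of the 2 TAM ligands Pros1 was the one with a difference. It read 4.39, 4.25 and 5.42 on treated arrays 1, 2 and 3 and 3.65, 3.12 and 3.31 on the untreated arrays. Every treated array was above every untreated one, with mTORi-HDL 3 again the highest. The group levels were 4.69 ± 0.64 and 3.36 ± 0.27 (SD, n = 3 each). The difference was 1.33 ± 0.38 (SE), a 2.51-fold higher level with a 95% interval of 0.45 to 2.21 on the log2 scale (limma, unadjusted p = 0.0088, adjusted p = 0.884). Over 5 arrays it was 1.48 ± 0.38 (adjusted p = 0.423), and leaving out each array in turn gave 0.96 to 1.55. An exact two-sided permutation test of Pros1 over 6 arrays gave p = 0.1, the smallest that 3 against 3 allows.

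On its own array Pros1 stood above 50.4%, 54.5% and 74.5% of genes in the treated samples and above 34.6%, 25.0% and 27.2% in the untreated ones. On mTORi-HDL 1 the line of that array put Pros1 at 4.18, against a measured 4.39, and the part of the array's scale in this value was not tested. On treated arrays 2 and 3 Pros1 was also above every untreated array, by level and by rank.

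Gas6, the other ligand, which binds all 3 TAM receptors, showed no such difference. It read 4.75, 3.35 and 3.90 in treated and 4.12, 3.89 and 4.23 in untreated samples. The highest and the lowest of the 6 values were both from treated samples. The difference was -0.08 ± 0.39 (SE; limma, adjusted p = 0.974) over 6 arrays and -0.45 ± 0.26 over 5, and 0.25 without mTORi-HDL 2.

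**Figure D2:**
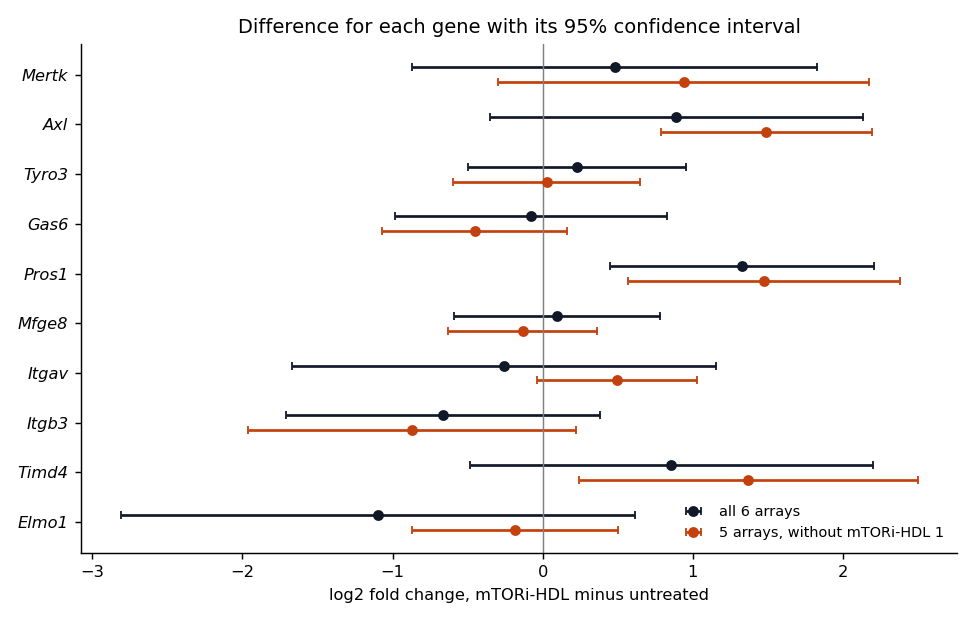
Difference between mTORi-HDL and untreated samples for each of the 10 genes (x axis, log2), over all 6 arrays in black and over 5 arrays in orange; bars are 95% confidence intervals from limma, not adjusted for the number of genes. The intervals of Pros1 exclude 0 in both, those of Axl and Timd4 over 5 arrays, and the point for Itgav changes side.

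Timd4, the phosphatidylserine receptor of resident macrophages, was high on 1 treated array. It read 3.93, 6.24 and 4.71 on treated arrays 1, 2 and 3, and 4.43, 4.19 and 3.68 on the untreated arrays. Both mTORi-HDL 2 and 3 were above the untreated arrays, and mTORi-HDL 1 lay among them. The difference was 0.86 ± 0.57 (SE; limma, adjusted p = 0.89) over 6 arrays and 1.37 ± 0.47 over 5 (unadjusted p = 0.024, adjusted p = 0.595). Without mTORi-HDL 2 it was 0.22, so most of the difference came from that array. The array highest for Timd4 was therefore not the one highest for Axl, Mertk and Pros1.

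In the branch that runs from MFG-E8 to αv integrins, no gene was called. Mfge8 read 5.24, 4.48 and 4.62 in treated and 4.66, 4.76 and 4.61 in untreated samples. Its 3 untreated values lay within 0.15 of each other, with mTORi-HDL 1 above them, mTORi-HDL 2 below them and mTORi-HDL 3 among them. The difference was 0.10 ± 0.29 (SE) over 6 arrays and -0.13 ± 0.21 over 5, with a 95% interval of -0.63 to 0.36 over 5.

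Itgav, the αv chain, read 5.15, 7.48 and 7.31 in treated and 6.73, 7.08 and 6.90 in untreated samples. Treated arrays 2 and 3 were above all untreated arrays and mTORi-HDL 1 was far below them, so the sign of the difference turned with that array. It was -0.26 ± 0.60 (SE; limma, adjusted p = 0.937) over 6 arrays and 0.49 ± 0.22 over 5 (unadjusted p = 0.0647, adjusted p = 0.74). A second, dimmer Itgav probe set read 4.58, 3.83 and 4.40 in treated and 4.01, 4.73 and 4.32 in untreated samples, with no such pattern.

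Itgb3, the β3 chain, was lower in treated samples on average, with overlap. It read 5.50, 4.53 and 5.23 in treated and 5.88, 6.42 and 4.95 in untreated samples. The untreated arrays differed from each other by up to 1.48, more than the difference between groups of -0.66 ± 0.45 (SE) over 6 arrays or -0.87 ± 0.46 over 5 (limma, adjusted p = 0.89 and 0.798). Itgb3 is also a platelet gene. Platelet markers, of which 6 of 8 were measured, had a mean level of 5.06 on mTORi-HDL 1, 4.01 and 4.05 on the other treated arrays and 4.05 to 4.25 on the untreated arrays, with Gp9, the dimmest, at 3.22 to 4.09. Pf4, the brightest, read 8.45 on mTORi-HDL 1 and 4.77 to 5.96 on the other 5 arrays. Ppbp, Itga2b and Gp5 were also highest there, at 4.84, 5.20 and 4.12, the last just above the 4.01 of mTORi-HDL 2. Gp6 and Gp9, at 3.94 and 3.78 there, lay among the other arrays. Dim genes read higher on that array in general, and the part of its scale in these values was not tested. By rank within its own array Pf4 stood above 97.8% of genes on mTORi-HDL 1, and above 65.2% to 81.0% on the other 5. Itga2b and Ppbp were also highest by rank on mTORi-HDL 1, while Gp5, Gp6 and Gp9 were not. The part of platelet RNA in Itgb3 was not tested.

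Elmo1, the adaptor that couples the receptors to Rac, read 5.59, 8.14 and 8.52 in treated and 8.49, 8.89 and 8.16 in untreated samples. Only mTORi-HDL 1 was far from the rest: mTORi-HDL 3 lay among the untreated arrays and mTORi-HDL 2 just under the lowest of them. The difference was -1.10 ± 0.73 (SE; limma, adjusted p = 0.89) over 6 arrays and -0.18 ± 0.29 over 5, with a 95% interval of -0.87 to 0.51 over 5. On mTORi-HDL 1 Elmo1 lay 1.34 residual SD under the line of that array, and the other 9 genes lay within 1 residual SD of it.

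**Figure D3:**
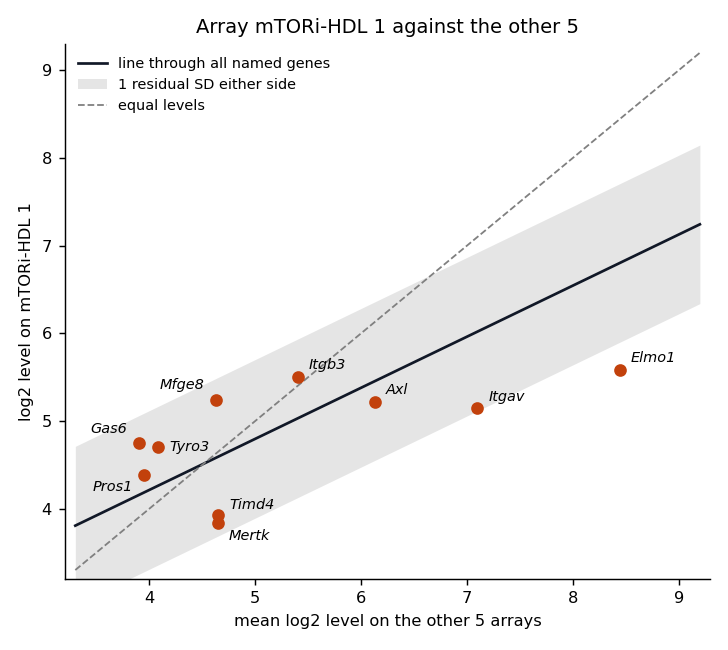
Level of each gene on mTORi-HDL 1 (y axis, log2) against its mean on the other 5 arrays (x axis, log2), with the line through the 22180 named genes, a band of 1 residual SD (0.90) and the line of equal levels. Only Elmo1 lies outside the band, and Mertk, Timd4, Axl, Itgav and Elmo1 fall below the line of equal levels.

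Markers of several other cell types were measured, since some of those cells are known to express these genes, and 0 markers of any list passed limma's test after adjustment over 6 or 5 arrays. Before adjustment p was under 0.05 over 6 arrays for 2 of 9 macrophage, 4 of 8 fibroblast and mural, 1 of 6 dendritic cell and 2 of 8 cardiomyocyte markers, each higher, beside 1.57% of all genes. It was under 0.05 for 6 of 6 T cell and 1 of 4 B cell markers, each lower, beside 3.07% of all genes, and for 0 platelet, endothelial or neutrophil markers. Over 5 arrays these counts were 5 macrophage, 4 fibroblast and mural, 3 dendritic cell and 2 cardiomyocyte markers, each higher, beside 3.47% of all genes. They were 5 T cell markers, each lower, beside 3.51% of all genes, and 0 B cell, platelet, endothelial or neutrophil markers. In bulk samples fewer cells of a type and less RNA per cell cannot be told apart. The 9 macrophage markers had a mean level of 6.58, 7.76 and 8.44 on treated arrays 1, 2 and 3, and 6.90 to 7.10 on the untreated arrays. Like Axl, they were lowest on mTORi-HDL 1, where bright genes read lower in general, and highest on mTORi-HDL 3. The part of that array's scale in their mean, and their own part in the levels of Axl, were not tested. Of the 9 macrophage markers 7 were higher over 6 arrays and 8 over 5, beside 58.2% and 46.6% of all genes.

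Fibroblasts also express Axl, Gas6 and Pros1. The 8 fibroblast and mural markers had a mean level of 5.29 to 5.56 in treated and 4.29 to 4.51 in untreated samples, with no overlap. Of these 7 were higher over 6 arrays, beside 58.2% of all genes. Over 6 arrays 4 of them were higher without overlap between the groups, beside 5.37% of all genes. Their differences were 2.22 for Dcn, 2.20 for Col1a2, 1.77 for Lum and 1.16 for Rgs5. Pdgfra, a defining fibroblast receptor and the dimmest of the list, read 2.73 to 4.01 with a difference of 0.47. Col1a1, Col3a1 and Pdgfrb had differences of 0.30, 0.09 and -0.02. Of the treated arrays the mean of this list was lowest on mTORi-HDL 3, at 5.29, where Pros1 and Axl were highest. Its genes differed in this. Col1a2 and Col1a1 were highest on mTORi-HDL 3, at 8.14 and 5.82. Lum, Rgs5, Pdgfrb and Col3a1 had their lowest treated value there, and Dcn and Pdgfra lay between. The part of these markers in the higher levels of Pros1 and Axl was not tested. The 6 measured dendritic cell markers had a mean level of 5.74, 6.50 and 5.96 on treated arrays 1, 2 and 3 and of 5.39 to 5.59 on the untreated arrays. Their highest array, mTORi-HDL 2, was also the highest for Timd4, and their part in it was not tested. T cells also express Elmo1, and the 6 measured T cell markers had a mean level of 6.33 on mTORi-HDL 1, 8.33 and 8.48 on the other treated arrays and 9.44 to 9.58 on the untreated arrays. Endothelial markers, 8 in all, had a mean level of 4.06 to 4.47 in treated and 4.01 to 4.42 in untreated samples, so the groups overlapped. Tek, a receptor that defines endothelium and the dimmest of the list, read 2.97 to 3.43. Pecam1, the brightest, read 4.71 on mTORi-HDL 1 and 6.65 to 7.44 on the other 5 arrays, with a difference of -0.81 over 6 arrays. Of the remaining lists, the 4 measured B cell markers had a mean level of 5.93 to 7.23 in treated and 7.32 to 7.65 in untreated samples. The groups overlapped for 8 cardiomyocyte markers (4.71 to 5.03 against 4.02 to 4.79) and for 8 neutrophil markers (4.05 to 5.19 against 3.82 to 5.17).

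**Figure D4:**
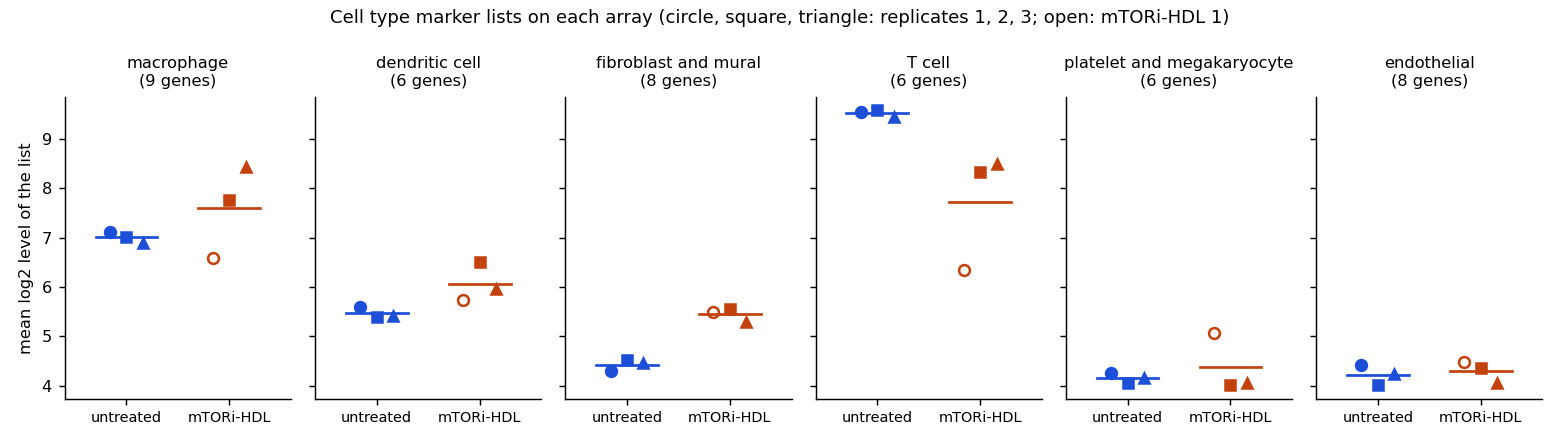
Mean log2 level of 6 marker lists on each array (y axis), untreated in blue and mTORi-HDL in orange; bars are group means and the open circle is mTORi-HDL 1. Fibroblast and mural markers are higher on all 3 treated arrays, T cell markers lower on all 3, and macrophage markers higher on treated arrays 2 and 3.

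The rest of the efferocytosis pathway was described by 84 further genes grouped by role, of which 79 were measured and 2, Itgam and Cd14, also count among the macrophage markers. With limma 0 of the 79 genes passed after adjustment over 6 or 5 arrays. Before adjustment p was under 0.05 for 6 over 6 arrays, each higher (7.59%, beside 1.57% of all genes), and over 5 arrays for 15 higher (19%, beside 3.47%) and 2 lower (2.53%, beside 3.51%). The groups did not overlap for 8 higher and 2 lower genes over 6 arrays (10.1% and 2.53%, beside 5.37% and 5.53% of all genes). Over 5 arrays this held for 21 higher and 8 lower (26.6% and 10.1%, beside 9.75% and 12.5%). The median difference was 0.11 over 6 arrays and 0.20 over 5.

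Other bridging molecules and opsonins were the group with the highest median, 0.77 over 6 arrays and 0.68 over 5. Of its genes 9 of 11 and 8 of 11 were higher, beside 58.2% and 46.6% of all genes. Anxa1, annexin A1, a phosphatidylserine-binding protein that dampens inflammation, read 7.07, 6.79 and 7.64 in treated and 6.23, 5.02 and 5.68 in untreated samples, with no overlap. Its difference was 1.52 ± 0.39 (SE; limma, unadjusted p = 0.0055, adjusted p = 0.832). Ptx3, a soluble pattern recognition protein, was likewise separated, with a difference of 0.86 ± 0.28. The complement genes C1qb and C1qc, whose product coats apoptotic cells, were higher by 1.0 ± 0.33 and 0.77 ± 0.25 and did not overlap between groups. C1qa read 6.33 on mTORi-HDL 1, 9.17 and 9.57 on the other treated arrays and 6.51 to 7.81 in untreated samples, and had a difference of 1.06 over 6 arrays and 2.07 over 5 (limma, adjusted p = 0.287 over 5).

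Among other phosphatidylserine and scavenger receptors 15 of 19 were higher over 6 arrays and 15 over 5, beside 58.2% and 46.6% of all genes. The genes behind these equal counts were not the same. Without mTORi-HDL 1, Stab2, Havcr1 and Adgrb1 turned from higher to lower, and Havcr2, Itgam and Itgb2 from lower to higher. The median of the group was 0.30 and 0.19. Lrp1, an endocytic receptor for calreticulin on dying cells, was the 1 gene higher without overlap over 6 arrays. That is 5.26% of the group, near the 5.37% of all genes. Its difference was 0.55 ± 0.33 over 6 arrays (SE; limma, adjusted p = 0.89). Cd36 and Msr1, scavenger receptors that also take up lipoprotein, had differences of 1.29 and 0.55 over 6 arrays and of 1.83 and 1.61 over 5. Cd36 was high on untreated 1 as well, at 8.51 against 5.85 and 6.49 on the other untreated arrays.

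Phagosome genes had a median of -0.11 over 6 arrays and 0.31 over 5. Lamp2, a lysosomal membrane protein, was higher on all 3 treated arrays, at 9.46, 10.05 and 10.22 against 9.01, 9.12 and 8.91, a difference of 0.90 ± 0.29 over 6 and 1.12 ± 0.21 over 5 (SE; limma, adjusted p = 0.89 and 0.254). Lamp1 had differences of 0.41 and 0.71. Atg5, of the autophagy machinery used in phagosome maturation, had -1.01 and -0.54.

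Of the genes that act after engulfment, Socs3, an inhibitor of cytokine signalling, read 9.94, 10.03 and 9.50 in treated and 8.08, 9.01 and 8.38 in untreated samples, without overlap. Its difference was 1.33 ± 0.33 (SE; limma, unadjusted p = 0.0046, adjusted p = 0.789). Abca1, which exports cholesterol taken up with a dead cell, had a difference of 1.02 ± 0.58 over 6 arrays and 1.46 ± 0.53 over 5. Nr1h3, the liver X receptor that senses such sterols and drives Mertk and Abca1, was lower on all 3 treated arrays, at 3.86, 4.28 and 4.55 against 4.77, 5.31 and 4.56, although mTORi-HDL 3 and untreated 3 were nearly equal. Its difference was -0.65 ± 0.32 (SE; limma, adjusted p = 0.89).

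In the engulfment machinery the directions were mixed, with 6 of 12 genes higher over 6 arrays and 7 over 5, beside 58.2% and 46.6% of all genes. Dock2, the leukocyte partner of Elmo1, read 4.23 on mTORi-HDL 1, 8.41 and 8.16 on the other treated arrays and 8.52 to 8.73 in untreated samples. Its difference was -1.70 over 6 arrays and -0.35 over 5. Elmo2, a relative of Elmo1, had -0.83 and -0.63, and the adaptors Crk and Crkl had 0.01 and -0.66 over 6 arrays but 0.89 and -0.94 over 5. Of find-me and don't-eat-me genes, Panx1, the channel that releases nucleotides from dying cells, had -0.68 and -0.83, S1pr1 had -0.87 and -0.28, and P2ry2, a nucleotide receptor, had 0.03 and -0.44. Cd47, the signal that holds phagocytes off, had -0.98 and -0.12, Cd24a, another such signal, had 0.36 and 0.45 with no overlap, and Siglecg, a receptor for it, had 0.47 and 0.71. The scramblase genes Xkr8, Ano6 and Plscr1 had 0.11, -0.02 and -0.31 over 6 arrays and -0.10, 0.38 and 0.34 over 5. The proteases Adam10 and Adam17, of which the second sheds Mertk, had -1.0 and -0.46 over 6 arrays and 0.02 and 0.53 over 5.

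**Figure D5:**
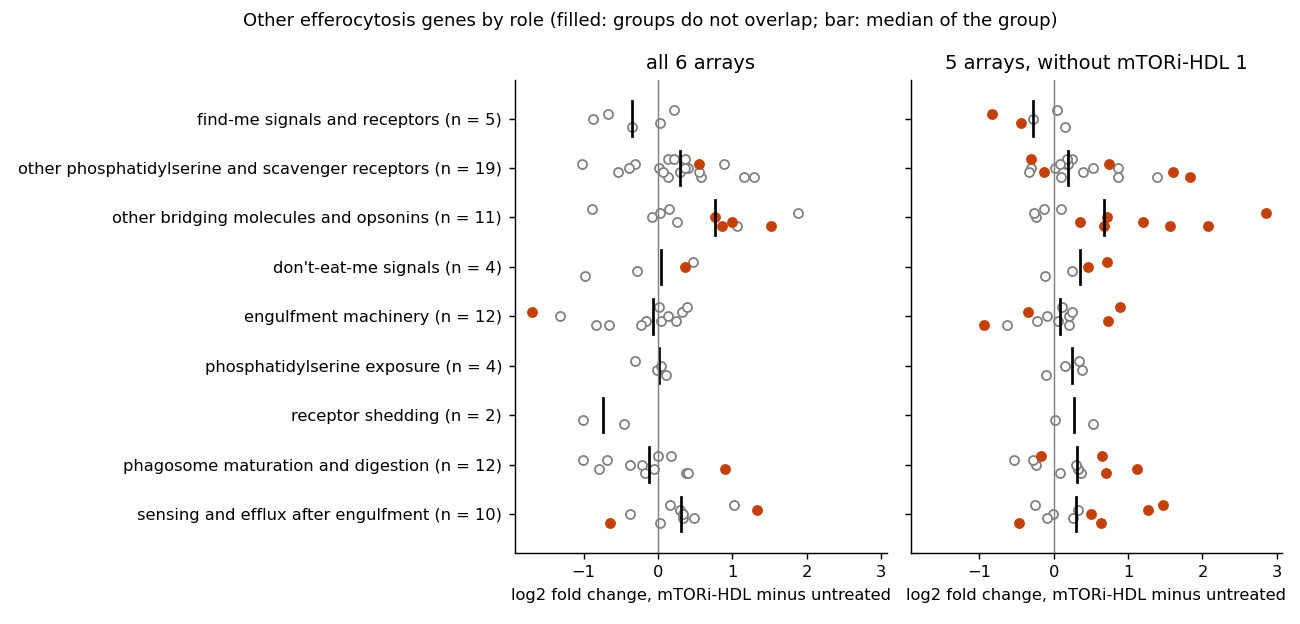
Difference between mTORi-HDL and untreated samples (x axis, log2) for the 79 other efferocytosis genes by role, over 6 arrays on the left and 5 on the right; each point is a gene, filled where the groups do not overlap, and black bars are medians. The bridging molecules have the highest median in both panels (0.77 and 0.68).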

How the data were processed

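Deposited values were log2 expression of 41345 probe sets on 6 arrays, 3 per group; the authors made them with Expression Console and RMA, as the submitters' processing notes list. RMA as usually run corrects background, quantile-normalizes and summarises probes together for all arrays. Amplified cDNA was made from 15 ng RNA, per the labels. The sources used here give no genome build.

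Genes were named from the platform annotation. Of all probe sets 23521 carried 1 symbol, and the brightest for each gene (mean of 6 arrays) gave 22180 genes, with no filter on dim ones. Identifiers of 23328 of those probe sets matched RefSeq (GRCm38.p6). The groups were tested in R 4.3.3 by limma 3.58.1 (lmFit, eBayes, two-sided, Benjamini-Hochberg over all genes), which was first tested on simulated data. Pros1 also had an exact permutation test.

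The 10 genes, the pathway list and the marker lists were chosen with earlier results of these data known. Of the lists, 5 of 84 pathway genes and 6 of 69 marker entries were not analysed here. In each pathway role the 2 genes with the smallest p over 6 arrays and over 5 were named. C1qc and Dock2 were chosen after their values were seen, as were the line of mTORi-HDL 1 and the adjusted p of 0.1 over 5 arrays. So were the platelet and the fibroblast and mural markers named beside the brightest and dimmest of their lists. The receptors named for a change of direction were chosen in the same way. Alternatives were each array left out, the replicate block, other scalings, array weights, a filter on dim genes, trend and robust fits and the mean of probe sets.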

Additional observations from a re-analysis of the deposited data

How the results depend on the processing

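Under 15 alternatives the 10 genes gave 148 differences, of which 138 kept their direction and 10 reversed, and 0 of the 10 genes or of the 79 pathway genes reached an adjusted p of 0.05 or 0.1 with limma under any of them. Some alternatives could not move a difference: the replicate block over 6 arrays, the trend and robust fits and the filter on dim genes. The mean of probe sets could move that of Itgav alone. The count of kept directions therefore overstates how well they hold. Axl, Pros1, Timd4 and Tyro3 were higher and Itgb3 and Elmo1 lower in each alternative that kept the gene. Leaving out 1 array at a time, the difference ran from -0.13 to 0.25 for Mfge8, from -0.67 to 0.49 for Itgav, from -0.45 to 0.25 for Gas6 and from -0.11 to 0.94 for Mertk, and the median of the pathway list ran from 0.07 to 0.20. With mTORi-HDL 1 left out and the replicate block, Mfge8 had -0.14, Itgav 0.41 and the pathway median 0.20. With it left out and quantile normalization these were -0.10, 0.50 and 0.22, and with array weights, which gave mTORi-HDL 1 a weight of 0.15, -0.09, 0.39 and 0.21. Array weights called 1 of all genes, H2bc12 (adjusted p = 0.02). At an adjusted p of 0.1, chosen for 5 arrays after the data were seen, 2 of all genes passed, H2bc12 and Pltp. The replicate block over 6 arrays changed no call (0 genes; Axl 0.89, Pros1 1.33). Deviations of same-numbered arrays correlated at 0.14, 0.14 and -0.02, and mTORi-HDL 3 correlated best with untreated 2, so the numbers were not taken as pairs. The filter on dim genes removed Gas6 and Pros1. The cause of the reversals was not tested. The files hold no detection calls, so background cannot be set apart for dim genes such as Pros1, Gas6 and Tyro3.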
